A study of Mus musculus with 28 samples.

Results

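Intergenic noncoding intervals that the array probes on a single strand were examined in 3-week mouse brain. A probe belonged to this set when the array file names it by a genomic interval with a strand, when no probe of the array targets the same interval on the other strand, and when it was well above background on at least 1 array of each sectioning plane. Of 55681 probes, 16181 carry such an interval name, 6499 of these are probed on a single strand, and 2433 probes in 1426 intervals met the detection rule. The members were thus chosen by the detection flags of these same arrays, and their detection is not a result. Nearly all members, 2424 of them, had a value on every array, and the 9 others had no spot without an outlier flag on some array and entered no comparison.

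The 28 arrays came from the brains of 3 male C57BL/6J mice of 3 weeks, 1 mouse per plane, grown in pathogen-free conditions with no treatment named. Transcriptome Tomography sections a frozen brain along a body axis and pools consecutive sections into fractions, which gave 12 coronal, 6 horizontal and 10 sagittal fractions. Each fraction was measured on 1 array, so no position had a replicate and plane cannot be told apart from mouse. The label of coronal fraction 12 names a further fraction pooled into it. The labels used here do not name the ends of an axis, so fractions are given by number. The mean profile of the cerebellum genes was highest in coronal fraction 3 and that of the olfactory bulb genes in fraction 12. A level is the log2 ratio of a probe's processed signal to the 75th percentile of its array.

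Much of a mammalian genome between coding genes is transcribed, and many of the products are long noncoding RNAs or extended ends of neighbouring transcripts. Some long noncoding RNAs are known for sharply regional expression in the brain, and many are present at few copies per cell. A probe on a single strand reads that strand only, so it tells a transcript from one made on the opposite strand. In pooled tissue, fewer cells of a type and less RNA per cell cannot be told apart.

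The intervals are given in mouse build mm9, which the array files name. No genome or annotation of that build was used here, so whether an interval lies outside genes, and which exon or intron it might overlap, was not analysed here. Interval length ran from 62 to 533972 bp, with a median of 2761 bp. The members were split between the forward strand, with 1264, and the reverse strand, with 1169. Most intervals held a single member, 785 of 1426, while 326 held 2 and 282 held 3. The single-strand rule applies to an identical interval only. The interval of 1383 members (56.8%) overlapped another target interval of different ends on the opposite strand, and that of 1330 members overlapped another target interval on the same strand.

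The members were dim on these arrays. Their mean level over 28 arrays had a median of -3.09, with an interquartile range from -4.16 to -1.43, against 0.23 for 20160 RefSeq coding probes under the same detection rule and -2.92 for interval probes on both strands. The level of 277 members (11.4%) exceeded the coding median. Probe brightness also depends on how a probe binds, so these values describe signal and not amounts of RNA. Of the 2433 members, 962 were well above background on all 28 arrays and the median was 24 arrays. The 39 members on exactly 3 arrays, the fewest that the rule allows, had mean levels from -6.09 to -4.90, and the 975 single-strand probes detected in only 2 planes, just outside the rule, lay between -6.42 and -3.36.

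**Figure D1:**
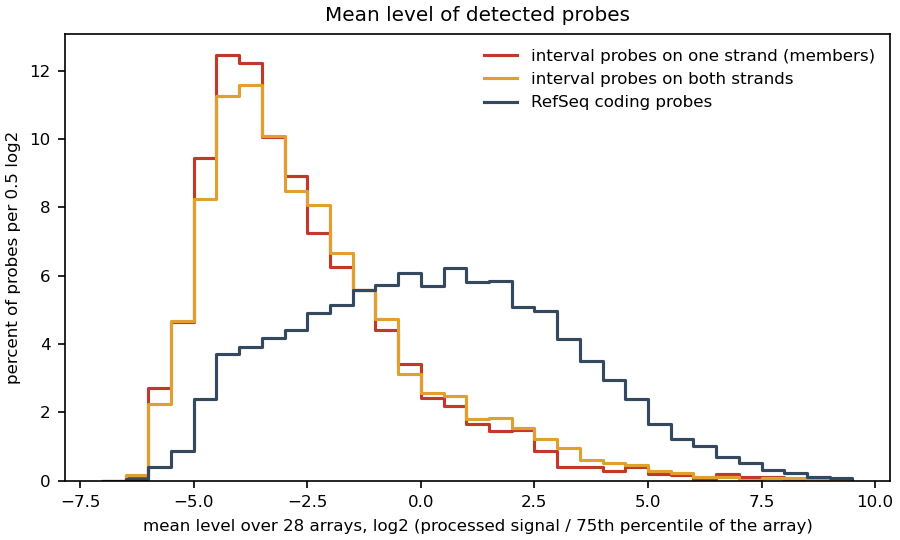
Distribution of the mean level over 28 arrays, in log2 of processed signal over the array's 75th percentile, as the percent of probes per 0.5 log2, for members, interval probes on both strands and RefSeq coding probes. Members and probes on both strands have similar shapes, with medians of -3.09 and -2.92, and the coding probes have a median of 0.23.

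The fraction in which a member was highest was set beside the same for coding probes. In the horizontal series 47.5% of members had their highest level in fraction 6, against 18.97% of coding probes. In the sagittal series 39.8% of members were highest in fraction 9, against 9.24% of coding probes, and 30.4% in fraction 1, against 28.0%. In the coronal series 24.9% of members were highest in fraction 10, against 11.7% of coding probes. With arrays scaled to their median in place of the 75th percentile, the shares were 20.8% (horizontal fraction 6), 21.6% (sagittal fraction 9) and 13.9% (coronal fraction 10) of members, against 4.67%, 3.72% and 5.17% of coding probes.

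These fractions are also arrays of low signal. The 6 arrays with the lowest 75th percentile of the processed signal, between 135 and 267 units, were sagittal fractions 1, 9 and 10, horizontal fractions 1 and 6 and coronal fraction 10, and 5 of them were among the 6 arrays with the highest median level of members. The median member level reached -1.76 (sagittal fraction 9), -2.10 (horizontal fraction 6), -2.47 (horizontal fraction 1) and -2.53 (sagittal fraction 1). On the 22 arrays outside those 6 it stayed between -3.31 and -2.84. Probes that were never well above background, 10928 of them, had a median of -5.03 in sagittal fraction 9 and -7.80 in sagittal fraction 4. The part of signal strength in the members' highest fractions was not tested.

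Coding probes of like level were set beside the members in bands of mean level. Below -4, the share highest in sagittal fraction 9 was 60.4% of 713 members and 37.1% of 1495 coding probes. Between -1 and 0 it was 15.8% of 190 members and 5.71% of 2380 coding probes, and above 2 it was 0.870% of 115 members and 2.48% of 5845 coding probes. For horizontal fraction 6 the shares were 57.1% and 39.3% in the lowest band and 20% and 18.4% in the highest. In each band below 2 the members' share exceeded that of coding probes in both fractions.

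**Figure D2:**
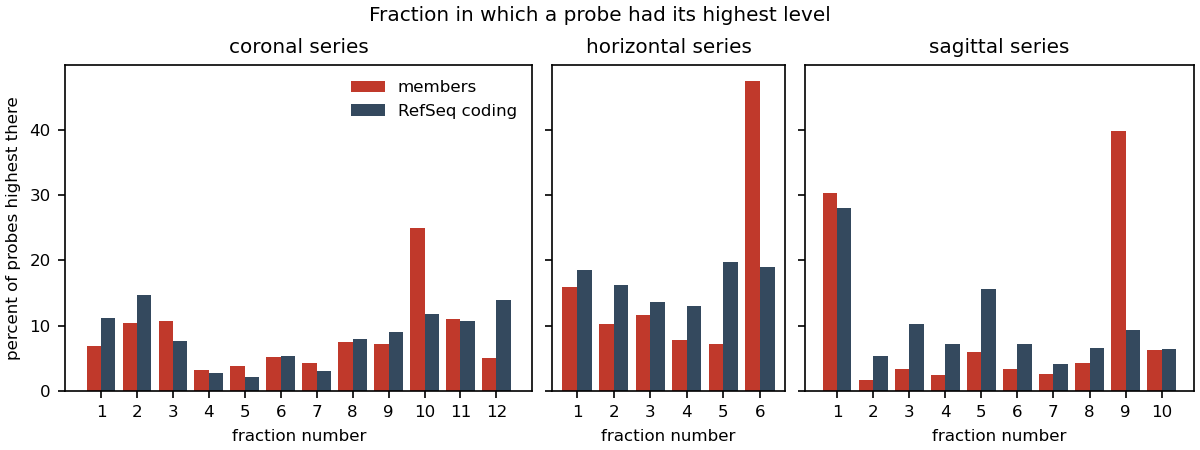
Percent of 2424 members and of 20160 RefSeq coding probes whose highest level within a series fell in each fraction. Members stand above coding probes in horizontal fraction 6 (47.5%), sagittal fraction 9 (39.8%) and coronal fraction 10 (24.9%).

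A smaller share of members than of coding probes had a trend along the coronal axis. By limma's F-test of a smooth curve of the fraction number, 571 of 2424 members (23.6%) had a trend at an adjusted p below 0.05, against 33.7% of all 32364 probes tested and 37.0% of coding probes. Within bands of level the members' share was below that of coding probes each time, at 16.7% against 28.0% below -4, 30.5% against 42.5% between -1 and 0, and 21.7% against 35.6% above 2. The fitted curve was highest in fraction 1 for 142 of the 571 (24.9%), in fraction 8 for 110 (19.3%) and in fraction 12 for 140 (24.5%), against 30.7%, 14.8% and 28.1% of the coding calls. The residual around the curve is the only error of this design. On the 8 arrays of fractions 3 to 10, which share a slide, 278 members (11.5%) were called, against 12.9% of all probes, and 135 of the 278 were called over all 12 fractions as well. With slide as an added term 11 members (0.454%) were called, against 0.745% of all probes.

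The largest fitted range among the coronal calls belonged to probe A_30_P01027901 in chr12:50490638-50508093, forward strand, which was singled out after its values were seen because it was not well above background in 3 fractions. Its level was -5.26, -6.65 and -6.04 in coronal fractions 1, 2 and 3, none well above background, then -0.51 in fraction 4 and between 0.50 and 1.75 in fractions 5 to 12. Every other array of the 28 was well above background. Fraction 8 was at least 76.8-fold higher than fraction 2, and the trend had an adjusted p of 0.0018 by limma. Levels in the other planes stayed within 0.33 to 1.38 (horizontal) and -0.25 to 1.72 (sagittal). Sagittal fractions 5 and 6, in the middle of the series, were the lowest of it, at 0.07 and -0.25. Fractions at mirrored positions around that middle differed by 0.16 on average.

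The coding probe whose profile over 28 fractions was most like that of A_30_P01027901 was Nr2e1, a nuclear receptor of forebrain neural stem cells, with r = 0.984. A further member of that interval, A_30_P01032159, had r = 0.997 with it and a mean level of -0.78, while a probe of the interval that was no member was well above background on 5 arrays.

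Of the 8 members with r over 0.85 to the cerebellum genes, 6 lay in 2 overlapping forward intervals of chromosome 8. Probe A_30_P01024770 in chr8:89996710-90049453 had levels of 5.45, 6.42 and 5.91 in coronal fractions 1 to 3, 4.35 in fraction 4, and between 1.96 and 3.41 in fractions 5 to 12. Fractions 1 to 4 thus did not overlap the others. Fraction 2 was 22.1-fold higher than fraction 8, with a fitted range of 4.47 and an adjusted p of 0.0043 by limma. In the horizontal series it was lowest in fraction 1, at 2.44, and highest in fraction 3, at 5.08, and in the sagittal series it lay between 3.21 and 5.19. Probe A_30_P01024798 in the overlapping interval chr8:90048940-90049461 ran alike, from 1.22 in coronal fraction 8 to 5.61 in fraction 2, with an adjusted p of 0.0044. These probes may read the same transcript and are not independent.

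All 6 members of these 2 intervals had r over 0.85 with the mean profile of 5 cerebellum genes (Pcp2, Car8, Gabra6, Cbln1 and Cbln3, of Purkinje and granule cells). The highest was A_30_P01021540 of the larger interval, with r = 0.975, a mean level of -1.07 and coronal levels from -3.90, not well above background, to 2.18. Its fraction 2 was at least 67.3-fold higher than fraction 8. The most similar coding probes of A_30_P01024770 were Gprc5c, an orphan G protein-coupled receptor, with r = 0.981, and Rgl3, a regulator of Ral GTPases, with r = 0.977. The noncoding RefSeq transcript Gm2694, looked up after the values were seen, had r = 0.989. The other 2 members with such a likeness to the cerebellum list, A_30_P01020912 and A_30_P01023220, share the forward interval chr10:3231337-3231802 and had r = 0.910 and 0.889.

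A further profile high in coronal fractions 1 to 3 was higher again in fractions 10 to 12. Probe A_30_P01029918 in chr10:69679644-69682458, forward strand, was at 0.98, 1.61 and 1.24 in coronal fractions 1 to 3 and between -3.10 and -2.32 in fractions 5 to 9, and stood again at -0.95, -0.59 and -1.12 in fractions 10 to 12. Its fitted range was 4.74, with an adjusted p of 0.0077 by limma, and fraction 2 was 26.1-fold higher than fraction 9. A second member of the interval, A_30_P01019232, had r = 0.974 with it. Similar coding profiles were those of Rhod, a small GTPase of endosomes, with r = 0.910, and Tff3, a secreted trefoil peptide, with r = 0.908. Its likeness to the cerebellum list was lower, at 0.774.

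Members on the reverse strand of chromosome 3 followed the myelin genes. Probe A_30_P01028269 in chr3:125556184-125556476 lay between -0.18 and 0.62 in coronal fractions 1 to 8 and was at -0.74, -2.0, -2.57 and -3.28 in fractions 9 to 12. Fractions 9 to 12 were thus the 4 lowest. The adjusted p was 6.98e-05 by limma and fraction 4 was 14.9-fold higher than fraction 12. In the sagittal series it was lowest in fraction 1, with -4.34, which was not well above background, and highest in fraction 4, with 0.83. In the horizontal series it ran from -2.36 in fraction 1 to 0.61 in fraction 5.

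The 3 members of that interval and A_30_P01018324 in the neighbouring reverse interval chr3:125556577-125557102 were the 4 members with r over 0.85 to the mean profile of Mbp, Mog, Mag, Mobp and Cnp, which make or maintain the myelin sheath. The highest was A_30_P01024196, with r = 0.923. Without horizontal fraction 6 and sagittal fractions 1 and 9, 7 members had r over 0.85 with this list. Among coding probes, A_30_P01028269 was most like Ugt8a, which makes the galactolipid of myelin, with r = 0.960, and Hhip, a binding protein of hedgehog ligands, with r = 0.959.

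Members that followed the cerebral cortex genes Tbr1, Cux2, Lamp5, Fezf2 and Rasgrf2 numbered 6, in 3 intervals on chromosomes X, 12 and 10. The highest r, 0.931, was that of A_30_P01022758 in chrX:146832315-146875680, reverse strand. It lay at -4.24, -3.91 and -4.02 in coronal fractions 1 to 3, the first of these not well above background, and was highest in fraction 10, at -1.29. Fraction 10 was at least 7.06-fold higher than fraction 1, and the adjusted p was 0.00054 by limma. It was highest in the outermost horizontal fraction 1, at -1.42, and in sagittal fraction 10, at -1.04. These fractions and coronal fraction 10 are among the 6 arrays of lowest signal, and the part of signal strength in this profile was not tested. The other members of the interval, A_30_P01025323 and A_30_P01031315, had r = 0.904 and 0.913 with the cortex list. Without horizontal fraction 6 and sagittal fractions 1 and 9, 10 members had r over 0.85 with it, but this check keeps the fractions where A_30_P01022758 was highest.

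One member followed the choroid plexus genes Ttr, Folr1, Clic6, Kl and Otx2, which are active in the epithelium that secretes cerebrospinal fluid. Probe A_30_P01030416 in chr1:90340543-90359181, reverse strand, had r = 0.886 with the list. It was well above background on 15 arrays. Its coronal levels had 2 separate maxima, at -1.67 in fraction 3 and at -2.26 and -2.13 in fractions 6 and 7, with -5.16 between them in fraction 5, not well above background. In the horizontal series fractions 3, 4 and 5 were at -2.43, -2.44 and -2.51 and the other 3 were not well above background. A smooth curve does not follow such maxima, and the coronal trend had an adjusted p of 0.20. The horizontal trend had an adjusted p of 0.14 and the sagittal trend, by limma, one of 0.0467, with levels from -5.98 in fraction 1, not well above background, to -2.02 in fraction 5. The other 2 members of this interval had mean levels of -4.16 and -1.86 and r as low as 0.490 and 0.251 with the rest of the interval.

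The 3 members of chr19:23064968-23069896, forward strand, had r over 0.85 with 5 genes of neurons and astrocytes that served as the tissue check, and without horizontal fraction 6 and sagittal fractions 1 and 9 only 1 member did. Probe A_30_P01030881 lay between 3.56 and 4.12 in coronal fractions 1 to 4 and was lowest in fraction 10, at 1.09. Its adjusted p was 0.0019 by limma, and fraction 2 was 8.19-fold higher than fraction 10. Fractions 1 of the horizontal and sagittal series were its lowest values there, at 1.39 and 0.56. Of the 16 lists of regional and cell type genes, the other 11 had no member with r over 0.85, and their closest members reached r = 0.560 to 0.816 among the 2014 members well above background on at least 10 arrays. The highest of these, 0.816 for the pituitary list, was 0.265 without horizontal fraction 6 and sagittal fractions 1 and 9.

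The calls of 10 coronal trends were examined further, those of A_30_P01027901, A_30_P01024770, A_30_P01024798, A_30_P01021540, A_30_P01029918, A_30_P01028269, A_30_P01024196, A_30_P01022758, A_30_P01030881 and A_30_P01027016. All but 1 were called by limma on the arrays of fractions 3 to 10 alone, and the exception was A_30_P01027016, with an adjusted p of 0.15. With slide as an added term, 8 of these calls were lost, with adjusted p from 0.055 to 0.74, and those of A_30_P01028269 and A_30_P01024196 remained. The fitted range of 7 of the 8 was then larger, such as 6.18 in place of 4.74 for A_30_P01029918, and that of A_30_P01027016 fell to 0.75 from 3.70.

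This exception followed the slide. It had one of the 5 largest fitted ranges among coronal calls well above background on all 12 arrays, with 1 probe per interval. Probe A_30_P01027016 in chr9:81537835-81583227, reverse strand, was at 1.18 to 2.04 in coronal fractions 3 to 10, the 8 arrays of 1 slide, and at -1.25, -0.85, -1.46 and -1.11 in fractions 1, 2, 11 and 12 on other slides. All 16 arrays of the other planes, none on that slide, lay between -1.17 and -0.15. The limma trend had a fitted range of 3.70 and an adjusted p of 0.0054. The other member of the interval, A_30_P01033032, had a fitted range of 0.67 and an adjusted p of 0.23. The most similar coding probes of A_30_P01027016 were Kansl1, a subunit of a histone acetyltransferase complex, with r = 0.975, and Ranbp9, a scaffold protein, with r = 0.951. In the coronal series itself, slide and position cannot be told apart for such a probe.

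In all, 15 of 2424 members had each of the 8 values of that slide above each of the 20 values elsewhere, a share close to the 0.59% of all probes tested, and 0 members had each of them below, against 0.0154% of all. Of these 15 members, 7 had other members in their interval, 15 in all, of which 0 showed the same split.

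The horizontal series had few arrays and its calls were fragile. Members with a trend numbered 480 of 2424 (19.8%) by limma, against 15.8% of all probes tested and 13.6% of coding probes, and the fitted curve was highest in fraction 6 for 325 of them (67.7%), against 30.8% of the coding calls. Within bands of level the members' share was not above that of coding probes each time, at 26.1% against 20% below -4, 13.9% against 14.6% between -2 and -1, 10.53% against 12.6% between -1 and 0, and 20% against 11.0% above 2. No member was called by limma without fraction 3 or without fraction 4, although 954 and 730 of them then had an unadjusted p below 0.05, and 116 were called without fraction 6. With arrays scaled to their median, 1065 members (43.9%) were called, against 59.8% of all probes, so the members' share was then the lower one.

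The 5 leading members of the horizontal series, those with the largest fitted range among calls well above background on all 6 arrays, shared a profile high at both ends. Probe A_30_P01033126 in chrX:120976609-120977281, forward strand, was at 1.87, -2.51, -3.45, -3.43, 0.75 and 2.97 in horizontal fractions 1 to 6. Probe A_30_P01021770 in chrX:121004130-121007360, reverse strand, was at 0.77, -3.74, -4.37, -4.18, -0.45 and 1.68. Fractions 1, 5 and 6 did not overlap fractions 2 to 4 in either probe. The same order of the 2 groups held for A_30_P01030968 (chr16:3337275-3355950, forward), A_30_P01019442 (chr5:14943275-14944205, forward) and A_30_P01028109 (chr2:150091945-150119782, forward), whose fraction 6 lay 60.0-fold, 56.0-fold and 53.1-fold above fraction 3. Adjusted p-values of the 5 ran from 0.0225 to 0.0282 by limma. All 5 calls were lost without fraction 3, without fraction 4 and with 1 spline degree of freedom fewer, and 3 without fraction 6. The fitted range of A_30_P01033126, 7.15, was 6.82 without fraction 3, 5.92 without fraction 6 and 2.19 with 1 spline term fewer.

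The same 5 members had a single high sagittal fraction. In fraction 9, A_30_P01033126 was at 3.82 and its next highest sagittal value was -2.59, and 7 of the 10 fractions were not well above background. A_30_P01019442 reached 5.65 in fraction 9 and -1.04 in fraction 1. Sagittal fraction 2, the mirror position of fraction 9, was at -3.60 and -1.66 for these 2 probes. In the coronal series A_30_P01033126 was well above background on 1 of 12 arrays, fraction 5, at -3.38.

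Coding probes of like profile were named for each of the 5. A_30_P01033126 was most like Gm20877 and Gm20867, with r = 0.992 and 0.986, and A_30_P01021770 was most like H2-Q4, a class I histocompatibility gene, with r = 0.964. A_30_P01030968 was most like Cd300a, an inhibitory receptor of leukocytes, with r = 0.959. A_30_P01019442 had r = 0.940 with H2-Q4 and 0.939 with Slfn9 of the schlafen family, and A_30_P01028109 had r = 0.959 with Pgbd1, derived from a transposase. Without horizontal fraction 6 and sagittal fractions 1 and 9 these values were 0.910 to 0.984. Of the 16 gene lists, the pituitary list was the most similar to each of the 5, with r from 0.467 to 0.600, and 0 of its 5 genes were well above background on all arrays.

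**Figure D3:**
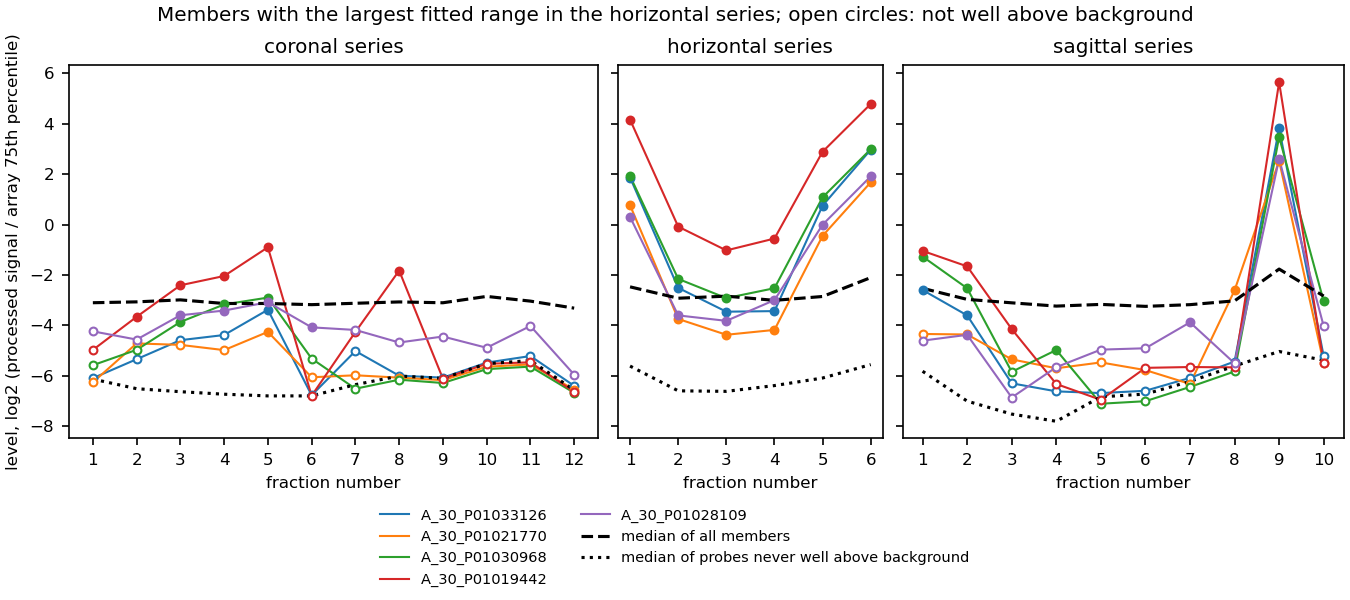
Level, in log2 of processed signal over the array's 75th percentile, of the 5 leading members of the horizontal series in each fraction, with the median of all members and of probes never well above background, and open circles where a probe was not well above background. The 5 members are high in horizontal fractions 1, 5 and 6 and in sagittal fraction 9, where A_30_P01019442 reaches 5.65.

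In the sagittal series 426 of 2424 members (17.6%) had a trend by limma, against 14.7% of all probes tested and 12.0% of coding probes. The fitted curve was highest in fraction 1 for 242 of them (56.8%), against 47.9% of the coding calls. Within bands of level the members' share was 11.9% against 11.4% of coding probes below -4, 22.6% against 11.8% between -1 and 0, and 27.8% against 13.7% above 2. The array of fraction 1 had the lowest 75th percentile of all, at 135, and without it 0 members were called, with 563 at an unadjusted p below 0.05. Without fractions 1 and 9 together, an alternative chosen after seeing the data, 124 members (5.12%) were called, against 2.90% of all probes, and 74 of them were among the 426. The calls numbered 27 with arrays scaled to their median and 1568 with normexp background correction. Tested together with the undetected probes, 541 members (22.3%) were called, against 34.5% of all probes. The members' share was then the lower one.

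The 5 leading sagittal members were likewise required to be well above background on every array of their series, which leaves out members that fall below it in fraction 1, such as A_30_P01024196 and A_30_P01028269, called with fitted ranges of 6.06 and 4.98. Each of the 5 was lowest in fraction 4, 5 or 6, and their fitted ranges were at most 4.20. Probe A_30_P01019416 in chr1:138518674-138521227, reverse strand, was at 2.34 in fraction 1, between -1.85 and -1.28 in fractions 3 to 7, and at 0.29, 0.87 and 0.58 in fractions 8 to 10. The outer fractions on both sides thus lay above the 5 middle ones, and the adjusted p was 0.0095 by limma. In the coronal series this probe was highest in fraction 10, at 1.29, and not well above background in fraction 12. Probe A_30_P01025644 in chr2:115892960-115911647, forward strand, was at 3.96 in sagittal fraction 1 and between 0.37 and 0.55 in fractions 3 to 6. Both were most like Spem2, a sperm maturation gene, with r = 0.949 and 0.959, and coding probes for olfactory receptors came next, Olfr139 and Olfr1415.

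The remaining 3 leading sagittal members were dimmer. Probe A_30_P01019649 in chr5:14923900-15062725, forward strand, an interval that contains chr5:14943275-14944205, ran from -4.27 in sagittal fraction 6 to -0.17 in fraction 1, with an adjusted p of 0.0458. The coding probe closest to it was Prm2, a protamine of sperm chromatin, with r = 0.945. Probe A_30_P01017923 in chr7:99882675-99883730, reverse strand, ran from -3.76 in fraction 5 to -0.13 in fraction 1, with an adjusted p of 0.0316, and was most like Prorsd1, with r = 0.937. Without the same fractions that r was 0.853. This probe was also highest in coronal fraction 10 and horizontal fraction 6, and A_30_P01019649 in coronal fraction 10 and horizontal fraction 1. All of these are arrays of low signal, whose part in the profiles was not tested. Probe A_30_P01029333 in chrX:146897133-146900197, reverse strand, peaked in fraction 7 at -0.12 and had no coding probe with r over 0.85. Calls of all 5 were lost without sagittal fraction 1, 4 with arrays scaled to their median, 3 with quantile normalization, 3 with slide as an added term and 2 with 1 spline degree of freedom fewer.

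Over all 5 pairs, mirrored sagittal fractions, such as 1 and 10, gave closer levels than other pairs for most members. The labels do not name the midline, which was taken as the middle of the series. The mean absolute difference between mirrored fractions had a median of 0.63 over members and 0.39 over coding probes, and that between all other pairs 0.77 and 0.46. It was smaller for mirrored than for other pairs in 72.2% of members and 66.4% of coding probes. Over fractions 3 to 8 alone this held for 42.8% of members and 42.9% of coding probes, with medians of 0.42 and 0.43 for the mirrored and other pairs of members. The other pairs include neighbouring fractions, so an even split is no reference for these shares. Fractions 1 to 4 lay on 1 slide and 5 to 10 on another, so each mirrored pair but that of fractions 5 and 6 crossed slides. The outer fractions 1, 9 and 10 are among the arrays of lowest signal, and the part of signal strength in the likeness over all pairs was not tested. The correlation of the sides over 5 pairs, given as a description, had a median of 0.40 over members and 0.29 over coding probes.

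The 5 brightest members had no called position trend. Probe A_30_P01022075 in chr17:17481706-17482457, reverse strand, had the highest mean level, 7.90, with a range from 7.54 to 8.98 over the 28 arrays. A_30_P01025369 of the same interval had a mean of 7.44 and r of at least 0.985 with its 2 companions. A_30_P01026230 in chr2:31714946-31716972, forward strand, had a mean of 7.69, A_30_P01020015 in chr17:39982023-39983277, forward strand, 7.56, and A_30_P01021243 in chr17:48068261-48087905, forward strand, 7.43. Each of these 5 was highest in sagittal fraction 1, and none had a trend at an adjusted p below 0.05 in any series, the smallest being 0.0582. The interval of A_30_P01020015 held 2 further members, A_30_P01027833 and A_30_P01030943, with means of 4.60 and 4.15. These had coronal trends at adjusted p of 0.021 and 0.023 by limma, and r of 0.67 and 0.68 with A_30_P01020015.

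The most similar coding probes of these bright members were as follows. A_30_P01022075 was most like Mrpl12 of the mitochondrial ribosome, with r = 0.968, and Oaz1, an inhibitor of polyamine synthesis, with r = 0.967. A_30_P01025369 was most like Hint2, a mitochondrial nucleotide hydrolase, with r = 0.974, and Ndufa12 of respiratory complex I, with r = 0.968. A_30_P01021243 was most like Mif, a cytokine made by many cell types, with r = 0.974. A_30_P01020015 had r = 0.953 with Zbtb7b, a zinc finger factor, and A_30_P01026230 had r = 0.963 with Aldh3b3, an aldehyde dehydrogenase.

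The steadiest members differed in level. Among the 962 members well above background on every array, A_30_P01032678 in chr14:44292637-44293014, forward strand, had the smallest SD over 28 fractions, 0.14, around a mean of 3.13, and ranged from 2.82 to 3.41. A_30_P01023804 of the same interval had an SD of 0.19 around 4.26. The remaining ones, A_30_P01022164 (chr8:27912000-27992750, forward), A_30_P01028412 (chr10:74325583-74396665, reverse) and A_30_P01022011 (chr2:156213798-156216885, reverse), had SDs of 0.16, 0.18 and 0.19 around 0.19, 3.72 and 6.57. For scale, repeated spots of a probe on 1 array had a median SD of 0.055 to 0.080, and the median SD over fractions was 0.64 for members and 0.40 for coding probes.

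Probe A_30_P01017714 in chr8:72671462-72672533, forward strand, which the study names as a long noncoding RNA, met the rule. It was well above background on all 28 arrays, with a mean level of 0.41. In the coronal series it was lowest in fraction 8, at -0.15, and highest in fractions 11 and 12, at 1.06 and 0.98. The adjusted p of its coronal trend was 0.0275 by limma, and it was 0.22 in the horizontal and 0.30 in the sagittal series. Coronal fractions 1, 2, 11 and 12, at 0.58 to 1.06, all lay above fractions 3 to 10, at 0.51 or less. Fractions 3 to 10 share a slide, so slide and position cannot be told apart for this trend. Its call was not among those examined with slide as an added term. The other 2 members of the interval, A_30_P01021263 and A_30_P01028873, had the same pattern in part, with r of at least 0.811 within the interval and adjusted p of 0.087 and 0.082. Its closest coding probes were Ccdc13, of centriolar satellites, with r = 0.934, and Mad2l2, of mitosis and DNA repair, with r = 0.932.

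Intervals with several members served as a check, since their probes target the same strand of the same interval. Over 1440 pairs of members in 637 intervals the median r was 0.68, and 434 pairs (30.1%) had r over 0.85. The likeness depended on level. Where the dimmer probe lay below -4 the median r was 0.49 over 480 pairs, between -2 and -1 it was 0.84 over 181 pairs, and between 0 and 2 it was 0.96 over 100 pairs. Pairs of coding probes of the same transcript had medians of 0.33, 0.62 and 0.78 in these bands. Members thus had a higher median within intervals than coding probes within transcripts in each band. This still held without horizontal fraction 6 and sagittal fractions 1 and 9, with medians of 0.40 and 0.33 below -4. Over all pairs, however, the order was then reversed, at 0.598 for members and 0.619 for coding probes, from 0.68 and 0.65. The pairs also differed in level gap, with median differences below -4 of 1.29 for members and 2.75 for coding probes.

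The levels of paired members, which also depend on how each probe binds, lay within 1 log2 in 52.2% of pairs, against 30.2% of pairs of coding probes of the same transcript, with median differences of 0.95 and 1.84. The largest such difference among the named intervals was in chr2:31714946-31716972, where A_30_P01026230 had a mean of 7.69 and A_30_P01025490, also a member, -4.21. In chr14:44292637-44293014 the 2 steady members stood beside A_30_P01024311, whose mean was -1.73 and which was among the 15 members raised on the slide of coronal fractions 3 to 10. Of the 2045 single-strand intervals with 2 or more probes, 354 had all probes as members, 901 had some and 790 had none. Pairs from neighbouring intervals on the same strand had a median r of 0.48 where the intervals overlapped (92 pairs), 0.32 at gaps of less than 10 kb (173 pairs), 0.32 at 10 to 100 kb (211 pairs) and 0.22 at 100 kb to 1 Mb (684 pairs). The dimmer member of these pairs had a median level of -3.32 (overlapping) and -4.07 to -3.80 (the others), and within an interval the median r was 0.57 over pairs between -4 and -3.

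**Figure D4:**
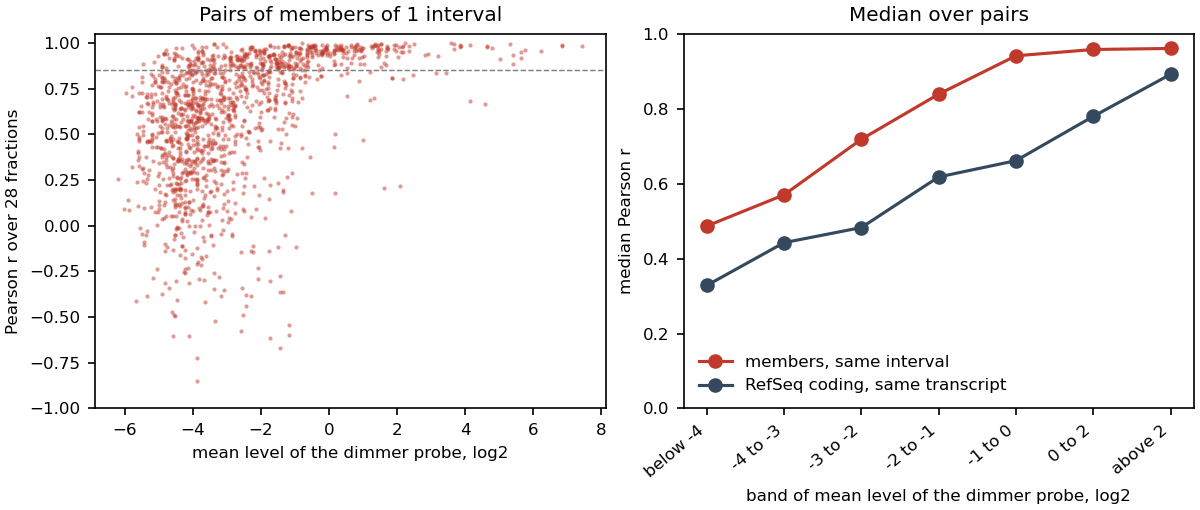
Pearson r over 28 fractions for pairs of members of 1 interval against the mean level of the dimmer probe (left, dashed line at 0.85), and the median r per band of that level for members and for coding probes of 1 transcript (right). The median for members goes from 0.49 below -4 to 0.96 above 0.

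Coding probes of similar profile were found for many members. At r over 0.85 across the 28 fractions, 1404 members (57.9%) had at least 1 coding partner, against 73.5% of coding probes with another coding partner. In bands of like level the members' share was not lower below 2, at 41.2% against 29.1% below -4 and 92.5% against 86.2% between 0 and 2. Without horizontal fraction 6 and sagittal fractions 1 and 9 the share of members was 48.1%, and below -4 it was 27.5% against 26.4% of coding probes. Between -4 and -3 it was 29.6% against 35.2%.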

How the data were processed

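Total RNA of 28 fractions was labelled with Cy3 and read on Agilent arrays of 1 colour. The intensity values that the authors deposited are, per the file headers, processed signals with spot background removed, from Agilent Feature Extraction 10.5.1.1. That software also sets the flags for outliers and for signal well above background. The authors further deposited log2 values, which match the scaling used here up to a small constant on each array and served as an alternative.

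Here, outlier spots were left out, spots of a probe averaged, and the result was divided by the array's 75th percentile and put on a log2 scale. A probe was well above background where at least 0.5 of its spots carried the flag. Position trends were tested per series with limma 3.58.1 (R 4.3.3), by an F-test on natural cubic splines with 3 degrees of freedom, or 2 for the horizontal series. Adjusted p-values are Benjamini-Hochberg values over all 32364 detected probes, with a threshold of 0.05, and describe scatter around a curve in 1 brain. On simulated Gaussian noise of the size of the residuals, 100 of 32364 probes were given a straight change of 1 log2 and 100 one of 2 log2. There the coronal test recovered 7% of changes of 1 log2 and 53% of changes of 2 log2. The horizontal and sagittal tests recovered none. With so few changed probes the adjusted threshold is harder to pass than in the data, where many more probes were called. These shares thus do not give the recovery of curves in the data. Correlations over 28 fractions are Pearson's r with no p, since neighbouring fractions share tissue and the arrays share slides. A fold is a lower bound where the lower fraction was not well above background, for which the lower level was raised, where needed, to the dimmest signal that was well above background on that array.

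The text names the 5 members of largest fitted range per series among those called and well above background on all its arrays (the brighter probe per interval), the 5 brightest, the 5 steadiest, the member most like each gene list at r over 0.85, A_30_P01017714, and up to 2 of the coding probes most like the members of largest range, the brightest members and A_30_P01017714. The members, the gene lists and the rules were chosen with earlier results of these data known. Symbols were taken from RefSeq (GRCm38.p6), whose coordinates were not used. Alternatives were scaling to the array median, quantile normalization, the normexp correction (offset 50), the authors' log2 values, other detection filters, fewer spline terms, slide as a term, single slides, and series without single fractions. The signal and the number of arrays limit the precision. Sequences of probes and intervals were not used here. One gene each of the cortex and myelin lists was left out, and a further coding probe is not reported here.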

Additional observations from a re-analysis of the deposited data

Results flagged for a closer look

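Among the named members and the median of all members, a horizontal or sagittal value was examined for its distance from the rest of its series, as the gap to the nearest value over the whole range. Of 66 sets, 14 values stood apart, where chance gives about 1 in 20 sets that were not chosen for their values. These members were chosen by range, level or likeness and some share an interval, so the rate is no yardstick for them. The gap ratio was 0.611 for A_30_P01033126, 0.581 for A_30_P01021770, 0.531 for A_30_P01019442 and 0.685 for A_30_P01028109, each highest in sagittal fraction 9, and 0.516 for the median level of members, which was highest there too. In that fraction A_30_P01017714 was lowest, with a gap ratio of 0.491. In sagittal fraction 1, A_30_P01025644 (0.483), A_30_P01022075 (0.475) and A_30_P01026230 (0.468) were highest and A_30_P01024196 was lowest (0.571). In horizontal fraction 1, A_30_P01022758 was highest (0.664), and A_30_P01024196 (0.645) and A_30_P01030881 (0.694) were lowest. In horizontal fraction 6, A_30_P01019416 was highest (0.626). No position has a second array that would show whether such a value recurs.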

How the results depend on the processing

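No paired analysis was possible because fraction numbers mark positions along different axes in different mice. The coronal count of 571 members became 278 in fractions 3 to 10 alone, 135 of them shared with the 571, 11 with slide as an added term, 9 of them shared, and 588 to 613 without fraction 1 or 12 (24.3% and 25.3% of members, 32.4% and 32.8% of all probes). The horizontal count of 480 became 1065 with the array median (43.9%, 59.8%) and 837 with normexp (34.5%, 28.0%). With 1 spline degree of freedom fewer, limma called 0, with 169 at an unadjusted p below 0.05. Leaving out 1 horizontal fraction gave 0 to 569, namely 263 without fraction 1 (10.9% of members, 6.84% of all probes), 368 without fraction 2 (15.2%, 10.3%), 569 without fraction 5 (23.5%, 17.8%), 0 without fraction 3 and 0 without fraction 4 (0 of all probes each), and 116 without fraction 6 (4.79%, 4.13%). The sagittal count of 426 became 27 with the array median (1.11% of members, 1.04% of all probes), 217 with quantile normalization (8.95%, 8.12%), 1568 with normexp (64.7%, 44.2%) and 202 with slide as an added term (8.33%, 7.79%). It was 0 in fractions 5 to 10 alone by limma (271 at an unadjusted p below 0.05), 0 without fraction 1 (0 of all probes), 1122 without fraction 9 (46.3% of members, 38.8% of all probes), 1308 without fraction 10 (53.96%, 47.1%) and, added after seeing the data, 124 without both fractions 1 and 9. Leaving out sagittal fraction 1, 9 or 10 thus gave 0 to 1308, and the other sagittal fractions were not left out. The cause of these shifts was not tested.

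With the laxer flag, which asks only for a significant signal, 5076 single-strand probes met the rule. With the stricter demand of a signal well above background on every array, 962 did. The share of members highest in coronal fraction 10 was 13.9% with the array median, 19.4% with quantile normalization and 50.1% with normexp. For horizontal fraction 6 it was 20.8%, 30.6% and 62.8%. For sagittal fraction 9 it was 21.6% and 28.3% with the first 2, and for sagittal fraction 1 it was 42.4% with normexp. In each of these settings members exceeded coding probes. The median level of members minus that of coding probes was -3.32, and -2.14 with normexp. Signal over background limits the members below -4, which are near the lowest values that an array separates from background.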

Other observations

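Interval names without a strand were carried by 13 probes, which entered no comparison. In chr3:34856791-34869544 all 3 probes were well above background on 28 arrays, with mean levels of 1.40, -1.13 and -0.88. In chr17:12941161-12944859 the 5 probes were dimmer, with mean levels from -5.28 to -4.28 on 3 to 12 arrays. In chr6:52032838-52033444 probe A_30_P01031484 was well above background on 26 arrays and highest in coronal fraction 3, at 1.60, whereas the other 4 probes of that interval were well above background on 0, 0, 0 and 1 arrays.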
